A study of Mus musculus with 3 samples.

Results

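The cytosolic ribosome of adult mouse hearts was followed through the mRNAs of its proteins on 2-colour whole mouse genome arrays. Members were taken by name: every gene probe whose name begins with Rpl or Rps and a number, the P stalk names Rplp and a number, and Rpsa, leaving out the S6 kinases whose names begin with Rps6k. The rule found 145 of 41174 probes, printed in 154 spots per array and carrying 84 gene names. All 84 names matched the RefSeq gene table, where the symbol of 1 differs (Rps3a is Rps3a1 there). The name rule also takes in Rps19bp1, which encodes a protein that binds Rps19 and is not itself part of the ribosome, and 6 paralog names (Rpl3l, Rpl7l1, Rpl22l1, Rpl36al, Rpl39l and Rps27l). The name rule itself uses no measured value.

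Each of 3 arrays (replicates 1 to 3) set Cy5 signal, labelled as heart RNA of Lrrc10-/- mice, against Cy3 signal, labelled as a reference pool of heart RNA from WT (Lrrc10+/+) mice. Animals were C57/BL6, 2 months old and untreated, and each RNA pool came from 2 hearts. Lrrc10 encodes a leucine-rich repeat protein of heart muscle, and the labels do not name any tissue limit to its deletion. Dyes were never swapped, and it is open whether a single WT pool served all arrays, in which case the spread between WT pools is not in the tests. Of the 9 cardiomyocyte markers 8 had a saturated probe, so the defining transcripts of heart muscle were among the brightest spots.

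The Lrrc10 probe ran against the labels. Its log2 ratio of Cy5 over Cy3 was 4.91, 5.56 and 5.65, a mean of 5.37 (limma, adjusted p = 2.62e-04), so the deleted gene was brighter in the channel labelled Lrrc10-/-. This call was lost without replicate 2 (log2 ratio 5.28, adjusted p = 0.081) and with no signal minimum (log2 ratio 5.37, adjusted p = 0.975). Nppa also ran opposite to the direction that the study gives for it. Directions are therefore given by dye below, and with the sign turned every value keeps its size and the 2 channels change places. Ratios compare channels of a single array, and in pooled whole-heart RNA fewer cells of a type and less RNA per cell cannot be told apart.

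Ribosomal proteins assemble with rRNA into a small (Rps) and a large (Rpl) subunit, which read mRNA and join amino acids. Their mRNAs are among the most abundant of a cell, are made in similar amounts because most proteins enter the particle once, and commonly begin with a C followed by a run of pyrimidines, the terminal oligopyrimidine (TOP) element. Through this element mTORC1 signalling controls their translation as a group, and in heart muscle the supply of ribosomes rises as the muscle grows. The proteins of the P stalk recruit the elongation factors.

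The sequence at the start site shows what the group shares beyond its name. Promoter sequences of RefSeq (GRCm38.p6) were at hand for 63 of the members other than Rps19bp1. Within 20 bases on either side of the start, the letters CTTTT, the variant CTTTC or the variant CTTCC stood on the transcribed strand in 33 of these 63 genes (52.4%) and in 5333 of all 27025 genes with a promoter sequence (19.7%). In the 300 bases from 250 before to 50 after the start, CGGAAG, a core of binding sites of ETS factors, stood on either strand in 43 members (68.3%) against 18.8% of all genes, and ATGGCG, a core of YY1 sites, in 20 members (31.7%) against 10.2%. A gene with several starts counted if any of them held the letters, and a match is a description of the letters, not a site. The counts can overlap, because CGGAAG on the other strand reads CTTCCG. Matches of ATGGCG at a start codon were not set apart. The 40 bases around the first start in the table, 5′ to 3′ on the transcribed strand, are shown for 5 members named below and for Rpl3l, with those pyrimidine matches in capitals.
Rps6, chr4:86857348-86857387, minus strand: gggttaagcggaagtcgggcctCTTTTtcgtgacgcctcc
Rpl13a, chr7:45128726-45128765, minus strand: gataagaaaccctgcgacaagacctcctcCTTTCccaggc
Rpl22l1, chr3:28805488-28805527, plus strand: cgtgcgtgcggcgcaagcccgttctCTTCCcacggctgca
Rpl39l, chr16:10170208-10170247, plus strand: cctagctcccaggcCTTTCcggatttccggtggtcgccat
Rps21, chr2:180257359-180257398, plus strand: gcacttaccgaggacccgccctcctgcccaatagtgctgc
Rpl3l, chr17:24727806-24727845, plus strand: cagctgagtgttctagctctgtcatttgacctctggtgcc
Neither Rps21 nor Rpl3l, the muscle paralog of Rpl3, holds the letters in this window, and the other 4 do.

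The array sees these genes through 60-base probes, and the probes decide what can be told apart. Those below, as the array files give them, belong to genes of the results that follow. For Rpl36a the probe shown is the one outside the overlapping pair described below, and its values in the results come from A_51_P283920 where no other probe is named. No 2 member probes of different genes share a run of 16 bases, so paralogs were measured by distinct probes. Many ribosomal protein genes have processed pseudogenes and near-identical copies elsewhere in the genome, which a probe may also bind, so the source of a signal within such a family is uncertain.
Rps6, probe A_51_P344734: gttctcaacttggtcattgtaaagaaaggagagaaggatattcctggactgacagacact
Rps3, probe A_52_P768: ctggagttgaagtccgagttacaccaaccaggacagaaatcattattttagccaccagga
Rpl34, probe A_51_P243283: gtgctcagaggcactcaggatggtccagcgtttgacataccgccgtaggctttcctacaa
Rpl3, probe A_51_P519024: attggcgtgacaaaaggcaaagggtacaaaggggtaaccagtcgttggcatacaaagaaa
Rpl3l, probe A_51_P243123: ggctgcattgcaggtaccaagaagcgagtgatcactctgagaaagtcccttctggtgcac
Rpl22, probe A_51_P387878: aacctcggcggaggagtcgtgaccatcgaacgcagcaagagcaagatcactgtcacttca
Rpl22l1, probe A_51_P218814: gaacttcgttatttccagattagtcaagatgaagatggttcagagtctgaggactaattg
Rpl36a, probe A_52_P481880: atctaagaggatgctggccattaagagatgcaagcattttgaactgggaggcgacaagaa
Rpl36al, probe A_51_P209444: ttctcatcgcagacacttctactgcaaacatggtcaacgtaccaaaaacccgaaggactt
Rpl7, probe A_51_P496480: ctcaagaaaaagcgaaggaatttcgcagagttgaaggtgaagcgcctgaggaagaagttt
Rpl7, probe A_52_P346326: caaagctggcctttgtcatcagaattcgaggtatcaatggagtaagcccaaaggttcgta
Rpl7, probe A_52_P455580: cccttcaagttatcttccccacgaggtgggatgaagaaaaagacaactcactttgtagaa

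Of the 145 probes 141 reached the minimum signal of 20 and were tested, and 137 were well above background in both channels on every array. The scanner's ceiling cut off 34 tested probes of 32 genes in at least 1 channel of 1 array, and these are described apart. The brightest probe free of saturation stood for each gene, which left 67 genes (42 with Rpl or Rplp names, 24 with Rps names or Rpsa, and Rps19bp1), and for 17 genes every tested probe was saturated. All 67 probes were well above background, 7 had a mean signal under 1000, and 10 were designed on a clone or EST instead of a RefSeq mRNA. On replicate 2 the Rps3a probe was an outlier spot and was left out, so its mean of -0.23 rests on replicates 1 and 3.

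Most ribosomal protein genes lay on one side of 0 on replicate 1 and on the other side on replicate 2. On replicate 1 they were brighter in Cy3, with a median log2 ratio of -0.30 and 61 of 67 genes below 0. On replicate 2 they were brighter in Cy5, with a median of 0.61 and 64 of the 66 genes with a value above 0. Replicate 3 was mixed, with a median of -0.21, 45 genes below 0 and 22 above. With normexp background correction and median centring in place of the deposited dye normalization the medians were 0.00, 0.91 and 0.31, while with normexp and loess they were -0.36, 0.49 and -0.24 and without dye normalization, with median centring only, -0.07, 0.65 and -0.16. The medians of all 20147 genes tested with an unsaturated probe were 0.01, 0.04 and -0.05. Over the 3 arrays the mean of the ribosomal medians was 0.03 ± 0.50 (SD, n = 3), so the common shift was smaller than the spread between arrays.

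**Figure D1:**
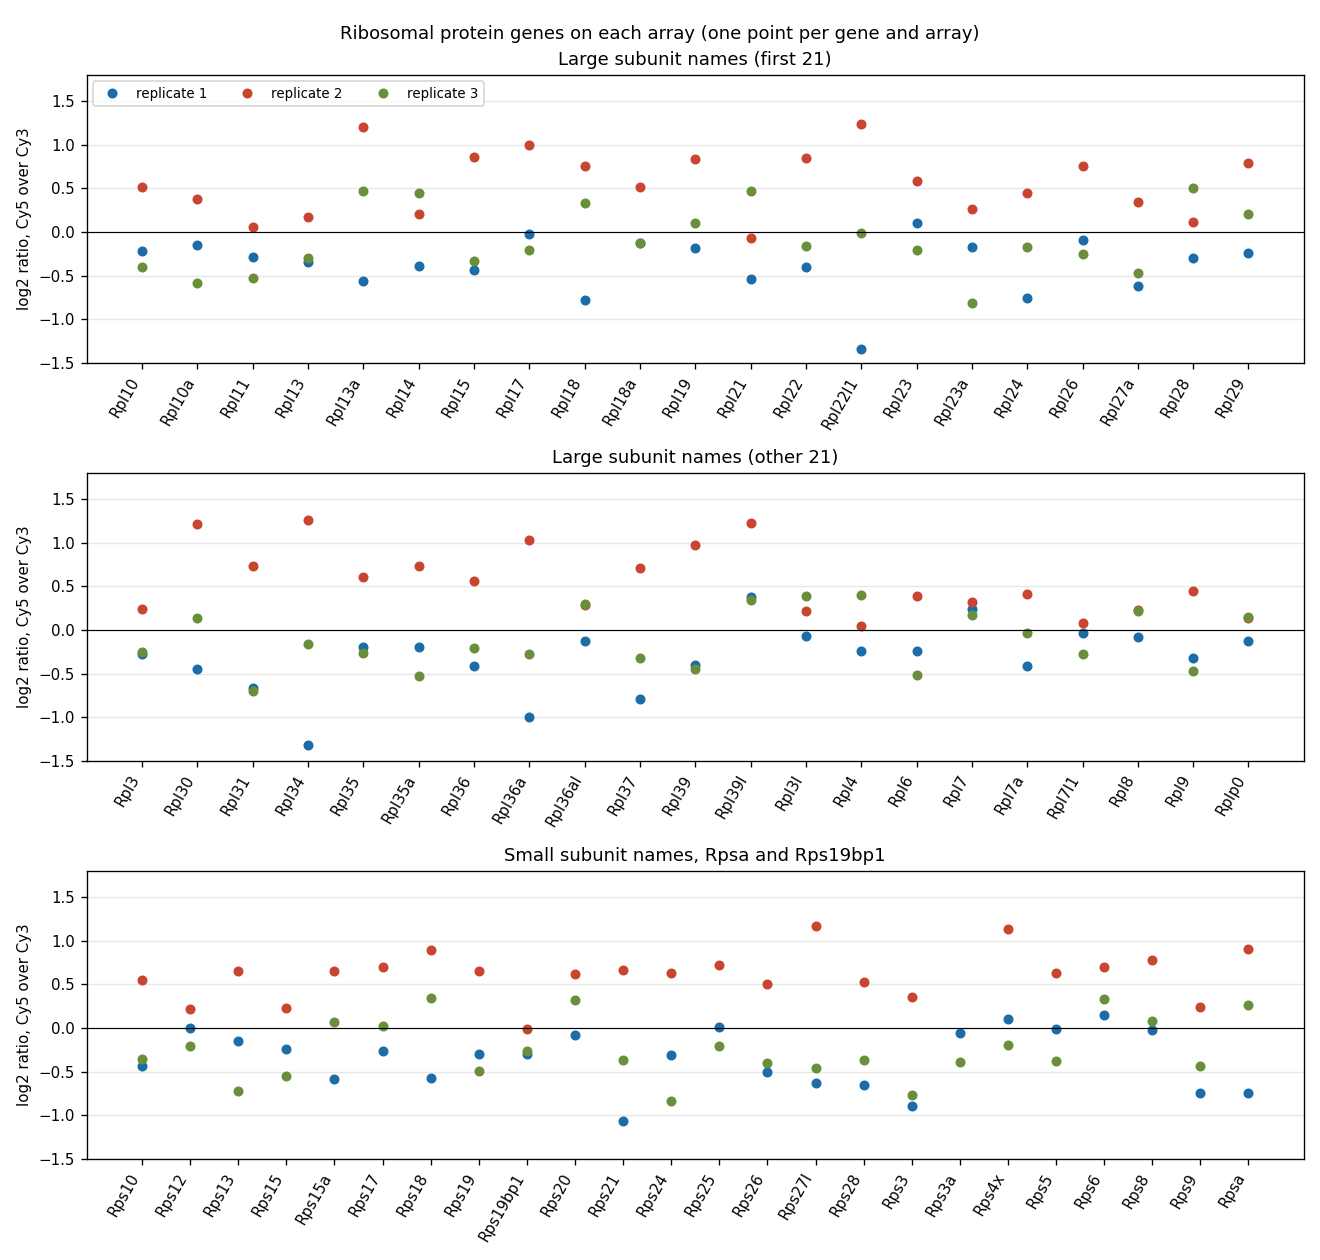
Log2 of the Cy5 signal (labelled Lrrc10-/-) divided by the Cy3 signal (labelled WT) for 66 of the 67 ribosomal protein genes by the brightest unsaturated probe, with 1 point per array and gene in alphabetical order within 3 panels that share the vertical axis. Replicate 2 lies above replicate 1 for every gene drawn with both, and replicate 3 mostly lies between or near replicate 1.

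The order of the first and second arrays was common to the chosen probes. In 66 of 66 genes measured on both, the log2 ratio was higher on replicate 2 than on replicate 1, by a median of 0.89 and by 0.08 to 2.57. Among all tested genes 51% had that order. Of the 107 unsaturated member probes, chosen or not, 4 did not have it, and these are further probes of Rpl21, Rpl22l1, Rpl7l1 and Rps9. Replicate 2 also exceeded replicate 3 in 59 of 66 members, against 53.4% of all tested genes. The pattern of below 0 on replicate 1 and above 0 on replicate 2 was met by 58 of 67 members and 28% of all genes, and 40 members then returned below 0 on replicate 3, against 16.7% of all genes. These arrays are replicates of 1 comparison and have no order in time.

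By size, 36 of the 67 genes were at least 1.2-fold brighter in Cy3 on replicate 1, where 25.3% of all genes were, and 1 (Rpl39l) was at least 1.2-fold brighter in Cy5, where 25.7% were. On replicate 2 the counts were 50 in Cy5 against 32.9% of all genes and 0 in Cy3 against 28.3%. On replicate 3 they were 30 in Cy3 against 28.7% and 12 in Cy5 against 21.2%. Replicate 3 thus held members past this fold on both sides, which replicate 2 did not.

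The members were also set against other genes as bright. The deposited dye normalization includes a lowess correction along the signal, so medians of bright genes near 0 are what it sets and are not a result. The other 1884 genes at a mean signal of at least 10000, a comparison chosen after the data were seen, had medians of 0.02, 0.05 and 0.02, and 51.8% of those measured on both arrays had the higher ratio on replicate 2. The 55 members above that signal had medians of -0.30, 0.62 and -0.21. The 22 unsaturated member probes under a signal of 1000 had medians of -0.15, 0.32 and -0.47. Over 12 ways of processing, the median of the members at that signal (43 to 78, by how probes were chosen) minus that of the other bright genes ran from -0.45 to -0.26 on replicate 1, from 0.44 to 0.61 on replicate 2 and from -0.31 to -0.23 on replicate 3. The signal filters and the series table gave the same differences as the main setting, so these ways could not widen the ranges. Without that reference, background correction with centring on the median of the array alone moved the medians of replicates 1 and 3 to 0.00 and 0.31 while the other bright genes stood at 0.38, 0.43 and 0.61. Without dye normalization the other bright genes had medians of 0.30, 0.12 and 0.14.

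**Figure D2:**
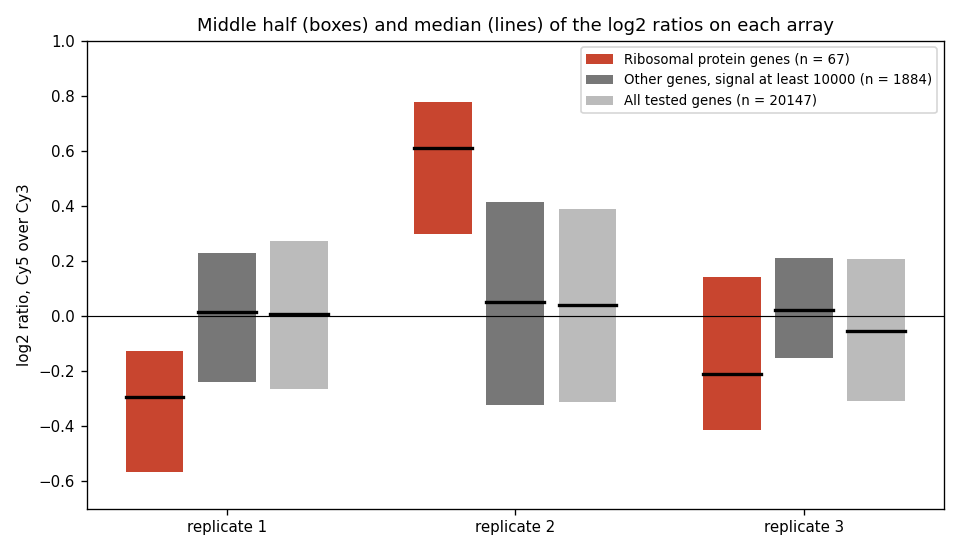
Interquartile range (box) and median (black line) of the log2 ratio of Cy5 over Cy3 on each array for the 67 ribosomal protein genes, 1884 other genes with a mean signal of at least 10000, and all 20147 tested genes. Under the deposited dye normalization the reference groups are centred near 0 on every array, while the ribosomal medians are -0.30, 0.61 and -0.21.

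Both subunits had medians of the same signs. The 42 large subunit names had medians of -0.28, 0.51 and -0.19, and the 24 small subunit names -0.30, 0.65 and -0.37. On replicate 2, 30 of 42 large and 20 of 24 small subunit genes were at least 1.2-fold brighter in Cy5, beside 32.9% of all genes, and the difference between the subunits was not tested. The spread of a gene over the arrays (SD of its 3 log2 ratios) had a median of 0.51 among members and 0.37 among all genes, with a range of 0.07 (Rpl7) to 1.28 (Rpl34) among members.

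Over all members the ratios on one array went only weakly with those on another. Rpl22l1 (-1.33 and 1.23) and Rpl34 (-1.31 and 1.25) nevertheless stood far from 0 on both replicates 1 and 2. Across the members with both values the correlation of log2 ratios was -0.24 between replicates 1 and 2 (66 genes), 0.15 between replicates 1 and 3 (67 genes) and 0.04 between replicates 2 and 3 (66 genes), as a description over genes that share the arrays. The GC content of the chosen probes ran from 35% to 75%, and its correlation with the ratio was -0.10, -0.23 and 0.18 on the 3 arrays. The correlation of the ratio with the log2 signal was -0.17, 0.15 and 0.07.

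No member probe passed the test over the 3 arrays. With limma, 0 of 141 member probes had an adjusted p under 0.05 in either direction, against 0.00676% of all probes called brighter in Cy5 and 0% brighter in Cy3. The lowest adjusted p of a member was 1.00, and 2 member probes, both saturated (Rpl7a and Rps2), had an unadjusted p under 0.05, against 3.07% of all probes. Every alternative limma fit also gave 0 member calls. The methods' t-test gave 4 member probes at an unadjusted p under 0.05 (2.84% of members and 4.2% of all probes) and 0 after Benjamini-Hochberg adjustment. These were the chosen Rpl7 probe, a dim clone probe of Rps9 and saturated probes of Rpl7a and Rplp2. A selection modelled on the study's methods took 1 member probe (the saturated Rpl7a probe), against 0.405% of all probes in Cy5 and 0.51% in Cy3. It was set here as a ratio of at least 1.2 in the same direction with the p of the array under 0.05 on all arrays.

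Under the deposited dye normalization few members kept a direction. On all 3 arrays 3 of 67 genes were brighter in Cy5 (Rps6, Rpl7 and Rpl39l), against 9.52% of all genes, and 1 was brighter in Cy3 (Rps19bp1), against 11.9%. With normexp and median centring 34 members had a ratio above 0 on each array and without dye normalization 17. The share of all genes was not counted under these settings, so these counts have no baseline. The median of all genes also lay above 0 on every array there. Without replicate 2, 42 genes were brighter in Cy3 on both remaining arrays, against 28.7% of all genes, and without replicate 1, 21 were brighter in Cy5, against 20.8%. Without replicate 3 the counts were 6 in Cy5 against 24.7% and 2 in Cy3 against 21.3%.

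Rps6, the small subunit protein that the S6 kinases phosphorylate below mTORC1, had processed Cy5 signals of 72514, 109492 and 74406 against Cy3 signals of 65252, 67782 and 59330. Its log2 ratio was 0.15, 0.69 and 0.33, a mean of 0.39 ± 0.28 (SD, n = 3; limma, adjusted p = 1.00). All Cy5 values lay above the Cy3 value of the same array. A second, clone-based Rps6 probe near the detection limit gave -0.42, 0.70 and -0.81 and does not repeat that order.

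Rpl39l, a paralog of the exit tunnel protein Rpl39 best known from testis, had the highest mean of the group under the deposited normalization, 0.65 ± 0.50 (SD, n = 3; limma, adjusted p = 1.00), from log2 ratios of 0.38, 1.23 and 0.34. With normexp and loess its mean was 0.20, below the 0.72 of Rps6, and with normexp and median centring 0.24, below 1.19. Its signals were low, 121, 141 and 124 in Cy5 against 93, 60 and 98 in Cy3, so the difference is one of dim spots. The core gene Rpl39 had -0.40, 0.98 and -0.44.

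Rpl7, a large subunit protein, had the steadiest ratio of the group at 0.24, 0.32 and 0.17 on its brightest probe. The other unsaturated Rpl7 probes gave -0.03, 0.18 and -0.03 on one and -0.41, -0.08 and -0.05 on the other. Probes of a single gene thus stood on both sides of 0, and the direction on all arrays depended on the probe chosen.

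The other genes with high means were carried by replicate 2. Rpl13a, a large subunit protein also known as a translational silencer in myeloid cells, had log2 ratios of -0.55, 1.21 and 0.47 (mean 0.37 ± 0.89 SD, n = 3). Rps4x, the X-linked small subunit protein, had 0.11, 1.13 and -0.19 on an EST probe with a signal under 1000. Its bright probe was saturated, with processed ratios of -0.09, 0.18 and -0.39. Rpl30, which in addition binds selenocysteine insertion elements, had -0.45, 1.22 and 0.14.

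At the low end, Rps3, a small subunit protein at the mRNA entry channel that also takes part in DNA repair, had the lowest mean, -0.44 ± 0.68 (SD, n = 3; limma, adjusted p = 1.00). Its Cy5 signals of 6398, 10938 and 13332 stood against Cy3 signals of 11859, 8587 and 22748, which gave log2 ratios of -0.89, 0.35 and -0.77. Replicate 2 alone lay on the other side of 0. Rps9 had -0.74, 0.24 and -0.43, and Rps21 -1.06, 0.66 and -0.37. Rpl11, which with Rpl5 can hold back Mdm2 when ribosome assembly fails, had -0.28, 0.06 and -0.52 on a dim clone probe, while its bright probe was saturated.

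The largest swings came from Rpl34, Rpl22l1 and Rpl36a. Rpl34 had Cy5 signals of 19606, 43885 and 62029 and Cy3 signals of 48633, 18407 and 69171, and so log2 ratios of -1.31, 1.25 and -0.16 with a mean of -0.07 ± 1.28 (SD, n = 3). Rpl22l1 had -1.33, 1.23 and -0.01 with the same SD to 2 decimals, while its second probe, a clone probe not well above background, ran the other way on the first 2 arrays with 0.56, -1.02 and -0.57. Rpl36a had -0.99, 1.03 and -0.27, with an SD of 1.03. All 3 cancelled to means near 0.

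Repeated spots of a single probe show the noise within an array. Rplp0, the base of the P stalk and a frequent reference gene of quantitative PCR, was printed in 10 spots. Its spots ran from -0.20 to -0.05 on replicate 1, from 0.07 to 0.18 on replicate 2 and from 0.07 to 0.20 on replicate 3, with an SD between spots of 0.05, 0.04 and 0.04. The means of -0.13, 0.14 and 0.15 gave 0.05 ± 0.16 (SD, n = 3). The spots of replicate 1 did not overlap those of the other arrays, and the spots of replicates 2 and 3 overlapped. The other stalk genes, Rplp1 and Rplp2, hit the scanner's ceiling with both dyes on every array and have no usable ratio.

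Several probes of a gene were available for 35 genes (75 probes, 46 pairs). Within an array the median absolute difference of a pair was 0.18 on the log2 scale, and of the 42 pairs well above background in both probes 20 had the same sign on all arrays. Of all pairs 5 share a run of at least 20 bases and are not separate looks at a transcript. The Rpl36a pair that shares 40 bases gave -0.99, 1.03 and -0.27 beside -1.03, 1.05 and -0.19, while the third Rpl36a probe, printed above, gave -0.30, 0.55 and -0.16. The direction on each array was common to the 3 probes and the size was not.

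By the mean over the arrays, the widest gaps between probes of a gene involved dim probes. For Rps18 a clone probe near the detection limit had a mean of -0.58 and the bright unsaturated probe 0.22. For Rps6 the corresponding means were -0.18 and 0.39. For Rpsa, the laminin receptor precursor that is also a small subunit protein, the bright probe gave -0.74, 0.90 and 0.26 and a dim probe of the same RefSeq mRNA -0.53, -0.17 and -0.21.

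Paralogs were compared with their core gene inside each array, as differences of log2 ratios, paralog minus core. Rpl3l, which replaces Rpl3 in part of the ribosomes of striated muscle, had -0.07, 0.22 and 0.39, and Rpl3 -0.28, 0.24 and -0.25, a difference of 0.28 ± 0.34 (SD, n = 3) that was positive on 2 arrays. It was 0.63 with normexp and loess, 0.63 with normexp and median centring and 0.64 without dye normalization, positive on 3 arrays in each. Rpl22l1 minus Rpl22 was -0.13 ± 0.71 (0.19 ± 1.17 with the second Rpl22 probe) and Rpl36al (-0.13, 0.29 and 0.29) minus Rpl36a 0.23 ± 0.85, both within their spread. Rpl39l minus Rpl39 was 0.60 ± 0.30 and positive on all 3 arrays, but 0.24 with normexp and loess and -0.18 with normexp and median centring, each positive on 2. Rpl7l1 (-0.03, 0.08 and -0.27) minus Rpl7 was -0.32 ± 0.11 and negative on all 3 with the brightest Rpl7 probe. Against Rpl7 probe A_51_P496480 the differences were 0.37, 0.16 and -0.22, and against A_52_P346326 they were -0.0022, -0.10 and -0.25, so the sign depends on the Rpl7 probe. With 3 arrays an exact permutation test of signs cannot give a two-sided p below 0.25, and these differences were not tested in another way. Rps27l, a paralog induced by p53, had -0.63, 1.16 and -0.45, while the single Rps27 probe was saturated, with processed ratios of -0.85, 0.03 and -0.56. Rpl10, which joins the large subunit last, had -0.22, 0.52 and -0.40, and Rpl22, needed for T cell development, had -0.39, 0.85 and -0.16.

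Rps19bp1 had -0.30, -0.01 and -0.26, below 0 on all arrays. Its second probe gave -0.20, 0.10 and 0.23. Leaving it and the 6 paralogs out changed the array medians little, to -0.30, 0.61 and -0.23 over 60 genes.

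The medians of the saturated probes had the same signs on each array. The ceiling was reached in Cy5 by 16, 23 and 32 member probes on replicates 1, 2 and 3 and in Cy3 by 8, 2 and 27. The count was highest on replicate 3 in both channels. Their processed log2 ratios had medians of -0.47, 0.37 and -0.36 (34 probes). Where Cy5 is cut off the ratio has only a bound, so the 7 of 34 saturated member probes below 0 on all arrays (77 of 165 saturated probes of other genes were) are not measurements of a lower Cy5 signal. The Rpl7a probe that this selection took is one of them: its Cy5 spot was saturated on every array and its log2 ratio was -0.98, -0.45 and -0.71, while the unsaturated Rpl7a probe chosen here gave -0.41, 0.42 and -0.04. Rps2, with 2 saturated probes and no tested unsaturated one, gave -0.86, -0.13 and -0.56 on one and -0.08, 0.58 and -0.09 on the other.

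Of the 15 genes with both kinds of probe, 9 had an unsaturated probe at a signal of at least 1000 (10 pairs), and in 6 of the 10 pairs the saturated probe varied less over the arrays. Rpl34 fell from an SD of 1.28 to 0.70 on its saturated probe. Rps18 had the highest mean processed signal of the members on its saturated probe, though the ceiling cuts such signals off and their order is uncertain. Its ratios were -0.39, 0.37 and -0.08 there and -0.58, 0.90 and 0.34 on the unsaturated probe. Rpl23a had 0.21, 0.37 and -0.24 against -0.17, 0.26 and -0.81. Other saturated probes among the highest by processed signal were those of Rps14 (processed ratios of -0.29, 0.11 and -0.12) and Rplp1, which have no unsaturated probe.

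**Figure D3:**
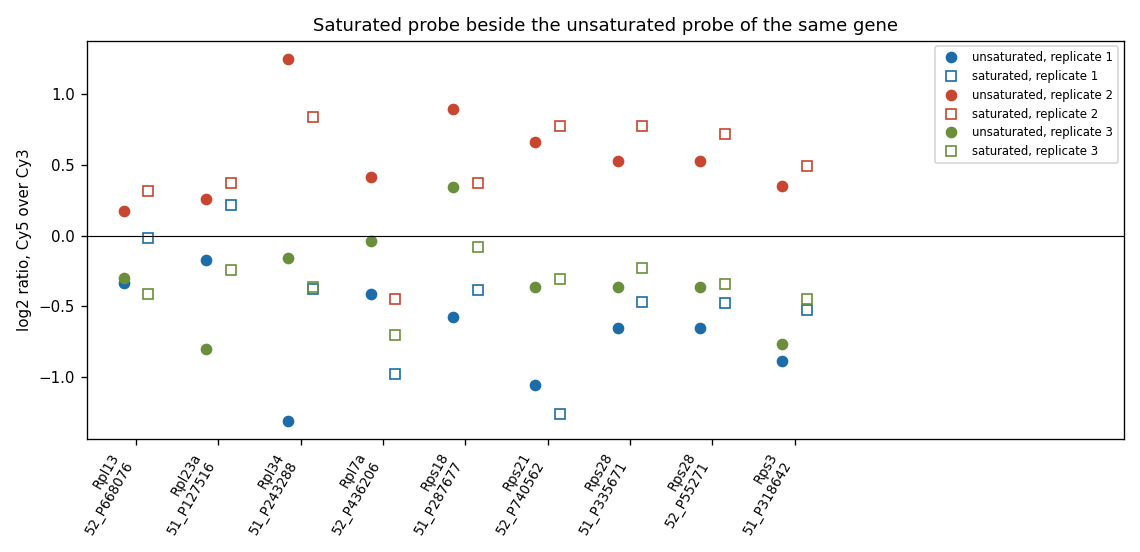
Log2 ratio of Cy5 over Cy3 for saturated probes (open squares, probe name under the gene) and the unsaturated probe of the same gene (filled circles), coloured by array, for 9 of the 10 pairs whose unsaturated probe has a mean signal of at least 1000. The Rpl7a pair differs in sign on replicate 2, and the Rpl34 pair shows the narrower spread of the saturated probe.

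Genes that work with the ribosome were read from lists by role. Of the ribosomal proteins outside the name rule, Gnb2l1, the 40S protein Rack1, had -0.64, 0.10 and -0.16, and Fau was saturated. With limma, 0 genes of these lists had an adjusted p under 0.05 in either direction.

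The 10 elongation factors had medians of -0.30, 0.31 and -0.07, but were mixed. Eef1a1, which brings aminoacyl-tRNA to the ribosome, had 0.05, 0.68 and -0.40, and Eef1e1, a small factor bound to the tRNA synthetase complex, -0.15, 0.85 and 0.00. Eef1a2, the form of muscle and neurons, ran differently with -0.96, -0.93 and 0.71, and Eif5a, which helps at stalled prolines, had -0.55, -0.27 and 0.11. On replicate 2, 5 of 10 were at least 1.2-fold brighter in Cy5 and 4 in Cy3, beside 32.9% and 28.3% of all genes.

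Other mRNAs with a TOP element (13 of 14 with an unsaturated probe, sharing members with the factor lists) had medians of -0.10, 0.26 and -0.17. Eef1b2 had -0.48, 0.50 and -0.47 and Gas5, a noncoding host transcript of small nucleolar RNAs, -0.90, 0.26 and -0.75, like the ribosomal proteins. Pabpc1, the poly(A) binding protein, had 0.16, 0.38 and 0.24, and Vim, an intermediate filament protein of nonmuscle cells, 0.53, 0.51 and -0.46.

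Initiation factors and assembly factors had other medians. The 37 initiation factors had medians of -0.07, 0.00 and -0.03, with Eif4e, the cap binding protein, at 0.08, 0.71 and 0.28, Eif5b, which joins the subunits, at 0.48, -0.07 and 0.46, Eif4ebp1, which represses Eif4e until mTORC1 phosphorylates it, at -0.37, -0.26 and -0.52, and Eif4g3, a scaffold, at -0.07, -0.87 and -0.13. The 29 biogenesis genes had medians of 0.10, -0.27 and 0.08, and on replicate 2, 17 of them were at least 1.2-fold brighter in Cy3 and 4 in Cy5, beside 28.3% and 32.9% of all genes. Ubtf, which drives rRNA transcription, had -0.09, -0.63 and -0.30 and Bop1, which processes large subunit rRNA, 0.01, -0.69 and -0.30. Wdr43, of the small subunit processome, had 0.53, 0.25 and 0.29, and Myc 1.13, 1.25 and -0.88.

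The 16 genes of mTORC1 signalling had medians of 0.05, -0.23 and 0.10. Ddit4, an inhibitor of mTORC1, had -0.26, -0.34 and -1.20 (limma, adjusted p = 1.00) and Gbl, a subunit of mTORC1, -0.17, -0.50 and -0.03. Tsc1, another inhibitor, had -0.15, 0.28 and 0.76, and Cnbp, which binds TOP mRNAs, 0.47, 0.23 and 0.17.

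**Figure D4:**
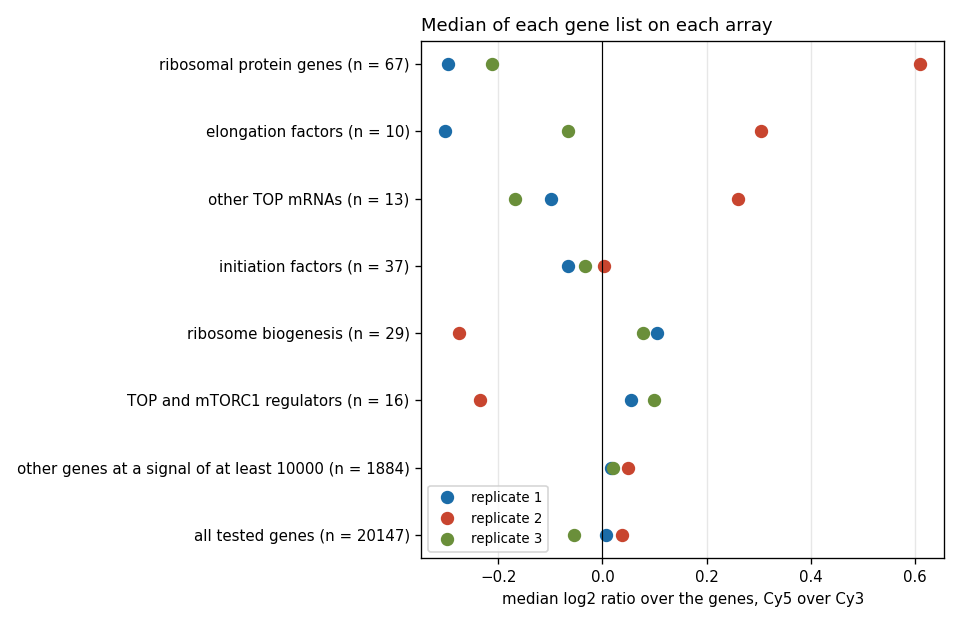
Median log2 ratio of Cy5 over Cy3 on each array (colour) over the genes of each list, with the number of genes in brackets. The ribosomal protein medians are -0.30, 0.61 and -0.21. Among the lists drawn, the ribosomal median lies furthest from 0 on replicate 2, and the biogenesis and mTORC1 lists lie on the other side of 0 there.

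Markers of other cells also differed between the arrays. Atrial markers, 4 of 5 tested and all 4 well above background, had medians of -0.16, 2.41 and -0.98, with Myl7 at -0.21, 3.41 and -1.27, Sln at 0.08, 3.69 and -1.15, Myl4 at -0.12, 1.41 and 0.23, and Nppa at -0.89, -0.61 and -0.82. Bmp10 was below the signal minimum. Their summed signal ran from 76789 to 120935 in Cy3 and from 43551 to 84070 in Cy5 and was nearly all Nppa. Without Nppa, which was below 0 on all arrays, the other 3 summed to 583, 889 and 577 in Cy3 and 537, 5628 and 456 in Cy5. Red blood cell markers (3 of 5 with a tested unsaturated probe, summed signal 20269 to 27408 in Cy3 and 19102 to 40990 in Cy5) had medians of 0.45, 1.02 and -0.32, while the 5 fat markers (of 6, 3 of them not well above background on all arrays, summed signal 5971 to 13953 in Cy3 and 5477 to 8062 in Cy5) had medians of 1.52, -0.19 and -0.95. The brightest unsaturated fat marker, Fabp4, had -0.45, 0.47 and -0.89, with the signs of the ribosomal medians, and the other 4, at far lower signals, were highest on replicate 1. The 6 endothelial markers (of 6, summed signal 32622 to 72973 in Cy3 and 28533 to 44266 in Cy5) had medians of 0.19, -0.62 and -0.22. The 6 fibroblast markers (of 6, summed signal 123149 to 192249 in Cy3 and 125899 to 196908 in Cy5) had 0.34, -0.36 and -0.05. The 3 unsaturated cardiomyocyte markers (of 9, summed signal 44601 to 96045 in Cy3 and 44527 to 53436 in Cy5) had -0.06, -0.76 and 0.29. Of these, 1 ran the other way, with -1.49 on replicate 1 and 0.58 on replicate 2. Saturated probes of Myl2, Myl3, Tnni3, Tnnt2 and Mybpc3 were lowest on replicate 1. Those of Actc1 and Myh6 were lowest on replicate 2 and that of Pln on replicate 3. The medians of the endothelial, fibroblast and cardiomyocyte lists were lowest on replicate 2. Skeletal muscle markers (6 of 7, 2 of them not well above background, summed signal 1590 to 2136 in Cy3 and 1408 to 1890 in Cy5) had -0.24, 0.20 and -0.08, and immune markers (6 of 6, 1 of them not well above background, summed signal 4959 to 7870 in Cy3 and 5684 to 8448 in Cy5) had -0.13, 0.22 and 0.12. The medians of both were highest on replicate 2, as were those of the atrial and red blood cell markers. The part of these cells in the ribosomal ratios was not tested.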

How the data were processed

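Heart RNA was measured on 3 2-colour arrays, all in 1 group. Per the file headers, the authors used Agilent Feature Extraction 9.1.3.1. The deposited mean signal intensity is unnormalized, and the deposited processed intensity is background-subtracted and then dye-normalized in Feature Extraction by a linear plus a lowess correction. The authors' log10 ratio is Cy5 over Cy3 of the processed signals, and the deposited p-value is that of 1 spot on 1 array. The series table of the authors holds the same log10 ratios (1 value missing).

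Control spots and outlier spots (11, 21 and 4 gene spots) were left out, ratios were converted to log2 and averaged over the spots of a probe. Probes with a geometric mean processed signal of at least 20 were tested (29606) by limma 3.58.1 in R 4.3.3, as a two-sided intercept test whose variance prior follows the intensity, and adjusted by Benjamini-Hochberg over all tested probes. In simulated data on these arrays with 3 replicates, 0% of probes with a log2 change of 1, 18% with 2, 88% with 4 and 84% with 6 were called. P-values measure the spread between these RNA pools. The number of arrays limits the precision. All arrays lay on 1 slide scanned on 1 day, so these could not be tested as batches.

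Named were the 5 highest and 5 lowest mean ratios, the 3 largest SDs, the P stalk, paralogs with their core genes, the 3 genes whose probes differ most, the 5 brightest saturated genes, and from each list the 2 genes highest and lowest in mean. Values of some of the genes so named are not reported here. Members and lists were chosen with earlier results of these data known. Alternatives changed background correction, dye normalization, the signal filter, the arrays, the treatment of saturated probes, the probe of a gene and the members. Figures were drawn with matplotlib 3.10.9.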

Additional observations from a re-analysis of the deposited data

How the results depend on the processing

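No paired analysis was possible because the series has 1 group, measured as a ratio on each array. The 0 member calls of limma held in every alternative fit, and the unadjusted t-test gave 4 and the selection modelled on the methods 1. Leaving out 1 array each gave a median of the gene means from -0.26 (without replicate 2) to 0.20 (without replicate 1), 3 to 21 genes brighter in Cy5 on the remaining arrays and 1 to 42 brighter in Cy3. Genes brighter in Cy5 on all arrays numbered 5 with normexp and loess, 34 with normexp and median centring, 17 without dye normalization and 1 with the mean over probes, against 3. Those brighter in Cy3 numbered 0 with normexp and median centring, without dye normalization and among core members only, and 8 with saturated probes kept, against 1. The share of all genes was not counted anew under these alternatives, so these member counts in both dyes stand without a baseline. With normexp and median centring the median of replicate 3 was 0.31 instead of -0.21, the counts past 1.2-fold on replicate 1 were 16 in Cy5 and 17 in Cy3 (1 and 36 before), and on replicate 3 they were 37 and 4 (12 and 30 before). This setting put the median of all genes at 0.13, 0.12 and 0.21. The share of all genes past 1.2-fold was not counted under it or under the settings named next. Without dye normalization 12 genes passed in Cy5 on replicate 1, with normexp and loess 2 did and among core members 0. On replicate 2, 1 gene passed in Cy3 with no signal minimum and 2 with saturated probes kept, against 0. With saturated probes kept 46 passed in Cy3 on replicate 3. Of 28 named members 7 kept the sign of their mean in all 11 alternative fits of the same probe (Rps3, Rps6, Rpl7, Rpl3l, Rpl36al, Rpl39l and Rplp0) and 21 did not in at least 1. The signal filters, the series table and leaving out saturated probes kept these means unchanged. Only a changed normalization or a left-out array could therefore turn a sign. The causes of these changes were not tested. Restricting the members to RefSeq mRNA probes, chosen after seeing the data, gave medians of -0.33, 0.61 and -0.23. Saturation leaves 17 genes without an unsaturated ratio.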

Other observations

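Some further probes of ribosomal protein genes differed from the one that stood for the gene. Probes of Rpl35a, Rps19 and Rps2 designed on clones and a second Rpl39l probe had mean signals of 9.82, 7.21, 5.27 and 8.76, under the minimum, and were not tested. A dim Rps9 clone probe had log2 ratios of -0.43, -0.58 and -0.47, all below 0, where the bright Rps9 probe had -0.74, 0.24 and -0.43. A dim Rps24 clone probe likewise had -0.60, -0.10 and -0.65, beside -0.31, 0.62 and -0.83 on the other unsaturated Rps24 probe. The Rps19 probe A_51_P337290 had -1.20, 1.15 and -0.52, a wider swing than the -0.30, 0.65 and -0.49 of the brighter probe of that gene.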
